A study of Mus musculus with 10 samples.

Results

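Glycolysis splits glucose into pyruvate in the cytosol, and lactate dehydrogenase then turns pyruvate into lactate. The hypoxia-inducible factors (HIFs) are pairs of an oxygen-labile alpha subunit and a stable beta subunit. Prolyl hydroxylases of the Egln family mark the alpha subunits for destruction when oxygen is present, and when oxygen is short the factors turn on most glycolytic enzymes, the glucose transporter Slc2a1 and genes of angiogenesis, mitophagy and collagen folding. Stratified epithelia have no blood vessels of their own, and their keratinocytes rely heavily on glycolysis.

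The genes described here are 33 members of these systems, found by their symbols in a table of 49164 mouse genes with counts. They comprise 21 enzymes, enzyme regulators and transporters, and 12 HIF subunits, hydroxylases and target genes. All 33 symbols were present, on 34 rows: Aldoa has a second row (ENSMUSG00000114515) with 4 to 9 counts per palatal library and 3 to 11 per buccal library, and that row alone failed the filter on low counts. The study measured polyadenylated RNA in mouse gingival epithelium, peeled from the gum after Dispase treatment, in 5 libraries from the palatal side (toward the palate) and 5 from the buccal side (toward the cheek). The labels used here give no strain, age, genotype or treatment for either side, and describe housing and peeling in the same words for both. The series' design text mentions pools of germ-free and of specific-pathogen-free mice, and the labels do not say whether any of these 10 libraries is such a pool. Whether each library stands for a different animal is not stated, and the p-values below therefore reflect the spread among libraries alone, which may be technical.

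Total counts were 25868777 to 37234192 per library. Keratinocyte markers were abundant on both sides, with a summed level of 26883 to 30747 CPM (counts scaled to a common library total, with TMM factors) in palatal and 19610 to 22293 CPM in buccal libraries over 6 of 6 markers. The other cell types were sparse: 8 endothelial markers summed to 3.77 to 8.17 CPM in palatal and 3.99 to 7.39 CPM in buccal libraries, with Cldn5 near 0 (below 0.05 CPM on average). The 10 skeletal muscle markers summed to 4.69 to 10.0 CPM in palatal and 5.86 to 17.2 CPM in buccal libraries, with Pvalb near 0. Leukocyte markers (10 genes) summed to 49.1 to 62.6 CPM in palatal and 120 to 205 CPM in buccal libraries, and 9 fibroblast markers to 87.8 to 102 and 15.6 to 20.3 CPM. Cell cycle genes (16) summed to 400 to 453 CPM in palatal and 546 to 794 CPM in buccal libraries, and all 16 were lower by the test used below. Salivary gland markers (6) summed to 2.85 to 59.2 CPM in palatal and 0.266 to 9.5 CPM in buccal libraries, nearly all from Muc5b, with Amy1, Bpifa2, Prol1 and Smr3a near 0. Genes induced by handling or heat (12, among them Jun, Egr1 and Dusp1) summed to 1711 to 2415 CPM in palatal and 1373 to 3047 CPM in buccal libraries. Their part in the results below was not tested.

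The comparison asked how the palatal gingival epithelium differs from the buccal one. Most of the glycolytic chain was modestly lower in palatal epithelium, with changes from -22.4% for Ldha to -13.8% for Tpi1 among the called enzymes above 100 CPM, whereas the hexokinase Hk2 and the lactate dehydrogenase Ldhb were higher. Of the 21 enzymes, regulators and transporters, 13 were lower and 2 higher past an adjusted p of 0.05 by edgeR (quasi-likelihood test), with a median log2 fold change of -0.27. Among all 14062 genes tested, 20.3% were lower and 18.7% higher (38.9% in either direction), with a median of 0.01. Among the 6169 genes with a mean of at least 20 CPM, 20.1% were lower and 18.3% higher. The HIF genes divided. Both alpha subunit genes, Hif1a and Epas1, were higher, as were the hydroxylase gene Egln1 and the target gene P4ha2. Egln3, Ankrd37, Ero1a, Bnip3 and Ndrg1 were lower. Of the 12 HIF genes, 5 were lower and 4 higher, with a median log2 fold change of -0.22. When libraries were scaled by their totals alone, the 12 had 6 lower and 2 higher, and the 21 had 15 lower and 2 higher, while of all 14062 genes 3260 were lower and 2184 higher, against 2850 and 2624 with TMM.

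**Figure D1:**
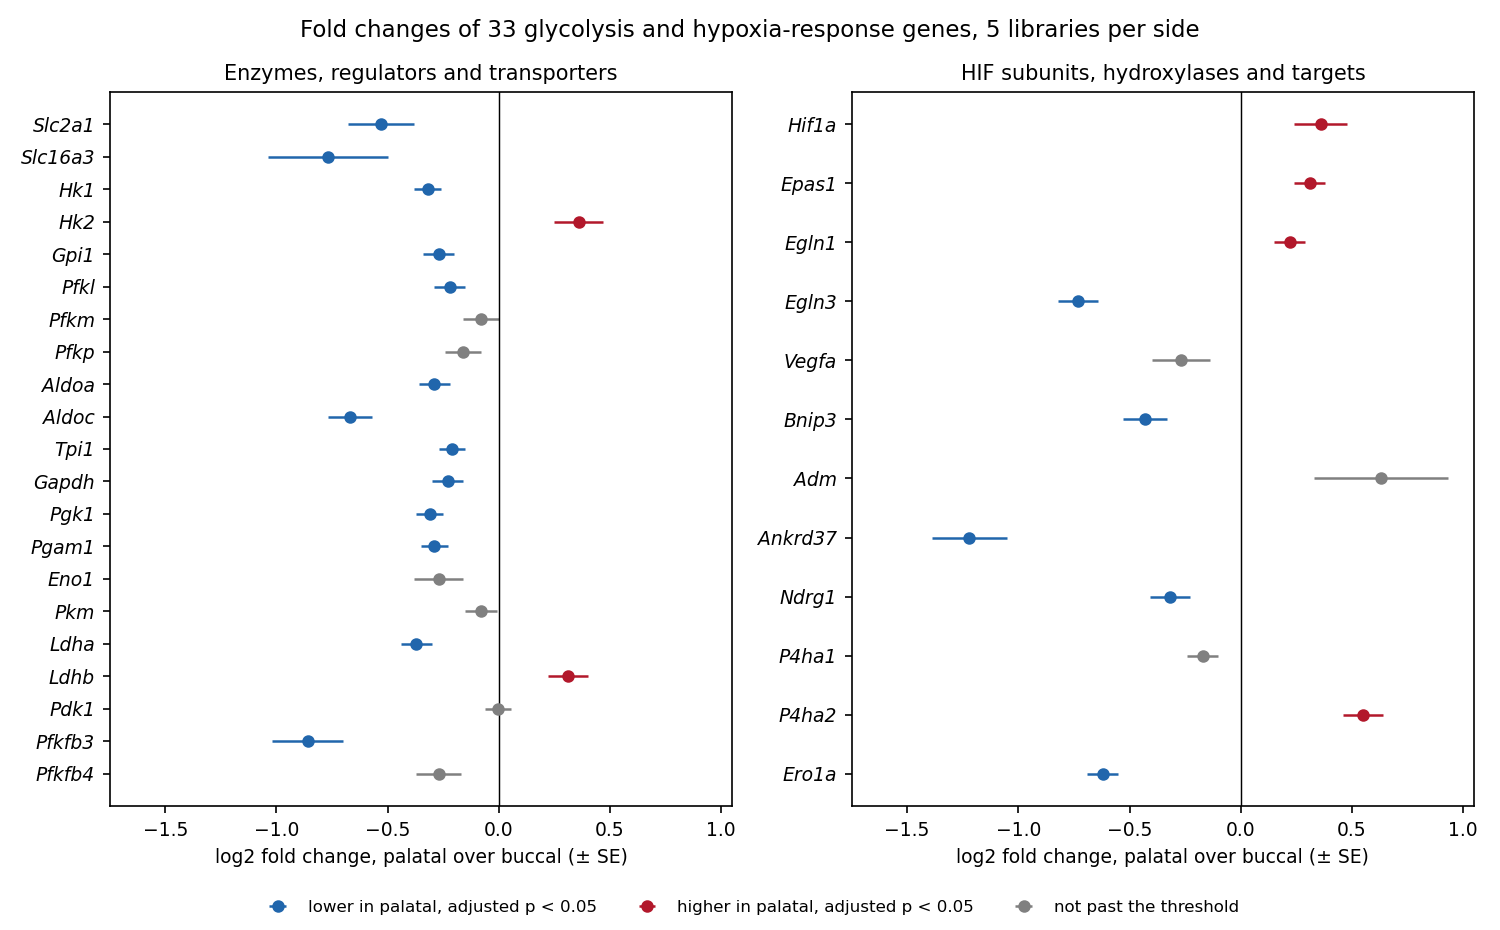
Log2 fold changes of the 33 genes, palatal over buccal, as points with bars of 1 standard error (5 libraries per side); red and blue mark genes higher and lower past an adjusted p of 0.05 in edgeR's test. Enzymes cluster left of 0 except Hk2 at 0.36 and Ldhb at 0.31, and the HIF genes run from Ankrd37 at -1.22 to Adm at 0.63, which did not pass.

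The enzyme with the highest level per kilobase of exon was the same on both sides. The level of each gene was put on a scale of CPM per kilobase of exon, with every base of any annotated exon counted. This length can exceed that of the transcript, for example 13.40 kilobases for Pfkp against 3.34 for Pfkm. The order of genes on this scale is therefore only approximate. Aldoa, the main aldolase, was highest at 210 CPM per kilobase in palatal and 257 in buccal epithelium, followed, at values too close for an order, by Pkm (152 and 160), Ldha (141 and 182), Tpi1 (126 and 147), Pgam1 (123 and 149) and Gapdh (122 and 143). The hexokinase Hk1 stood at 33.5 and 41.8 CPM per kilobase and Hk2 at 16.1 and 12.6. Among the 3 phosphofructokinase genes, Pfkl stood at 16.7 and 19.5, Pfkp at 6.97 and 7.81 and Pfkm at 6 and 6.33 CPM per kilobase. The lowest levels were those of the lactate exporter Slc16a3 (0.235 and 0.404) and the regulator Pfkfb3 (0.741 and 1.34). The summed level of the 21 genes was 4807, 4569, 4541, 4338 and 4224 CPM in palatal libraries 1 to 5, against 5477, 5272, 5132, 5391 and 5224 CPM in buccal libraries 1 to 5. These sums did not overlap between the sides, whereas the summed level of the 12 HIF genes did, at 955 ± 43.0 CPM in palatal and 997 ± 57.3 CPM in buccal libraries (SD, n = 5 each).

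The glucose and lactate transporter genes were both lower in palatal epithelium. Slc2a1, which encodes the glucose transporter GLUT1, had 101, 112, 77.3, 71.0 and 77.1 CPM in palatal libraries 1 to 5, against 144, 158, 96.2, 116 and 119 CPM in buccal libraries 1 to 5. The sides overlapped, with palatal libraries 1 and 2 above buccal library 3. On the log2 scale, Slc2a1 fell by 0.53 with a standard error of 0.15 (edgeR adjusted p = 0.0133), and all fold changes below are given on this scale with their standard error. With no filter on low counts its edgeR adjusted p was 0.075. Slc16a3, which encodes the lactate exporter MCT4, had 1.39, 1.85, 1.18, 0.637 and 1.19 CPM in palatal libraries, against 2.86, 2.76, 1.55, 1.21 and 2.37 CPM in buccal libraries, and the sides overlapped. Its log2 fold change of -0.77 ± 0.27 (edgeR adjusted p = 0.0376) missed the threshold in 7 of the 10 fits that left out 1 library. Those were palatal library 1, 3, 4 or 5 and buccal library 1, 2 or 5, with edgeR adjusted p from 0.0571 to 0.0958 and log2 fold changes from -0.80 to -0.61. Of the 10 leukocyte markers, 9 were lower like Slc16a3 and 1, Itgam, was higher, at 10.6 ± 1.53 CPM in palatal and 1.63 ± 0.541 CPM in buccal libraries. Most of their sum was Cd74, at 33.5 ± 5.54 CPM in palatal and 121 ± 29.5 CPM in buccal libraries (SD, n = 5 each), and their part in the Slc16a3 result was not tested.

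The hexokinases, which trap glucose as glucose 6-phosphate, moved in opposite directions. Hk1, the housekeeping form, had 289, 270, 290, 283 and 298 CPM in palatal libraries 1 to 5, against 351, 363, 360, 363 and 348 CPM in buccal libraries 1 to 5. Every palatal library lay below every buccal one, a separation toward lower palatal values found for 14.7% of all tested genes, and Hk1 fell by 0.32 ± 0.06 (edgeR adjusted p = 0.00038). Hk1 was also among the steadiest members, with a coefficient of variation of 3.6% among palatal and 1.9% among buccal libraries. Hk2, the inducible form, had 105, 115, 90.2, 88.2 and 81.8 CPM in palatal libraries, against 70.9, 91.5, 66.9, 66.3 and 79.5 CPM in buccal libraries. Buccal library 2 lay within the palatal range and the other buccal libraries below it. Hk2 rose by 0.36 ± 0.11 (edgeR adjusted p = 0.0161).

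The next steps isomerise, phosphorylate and cleave the sugar. Gpi1, glucose phosphate isomerase, had 286, 244, 262, 249 and 244 CPM in palatal libraries, against 324, 301, 311, 325 and 292 CPM in buccal libraries. It fell by 0.27 ± 0.07 (edgeR adjusted p = 0.00422), with no overlap between the sides. Of the phosphofructokinases, which catalyse the committed step, Pfkl averaged 111 ± 8.19 CPM in palatal and 130 ± 10.2 CPM in buccal libraries and fell by 0.22 ± 0.07 (edgeR adjusted p = 0.0233). The Pfkl call was lost without palatal library 4 or 5 or buccal library 1 or 4, with edgeR adjusted p from 0.0538 to 0.0673. The muscle form Pfkm and the platelet form Pfkp stood at -0.08 ± 0.08 and -0.16 ± 0.08 and did not pass (edgeR adjusted p = 0.462 and 0.118).

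The aldolases, which cut the sugar into trioses, were both lower. Aldoa had 666, 642, 623, 564 and 564 CPM in palatal libraries, against 769, 695, 713, 790 and 773 CPM in buccal libraries, and fell by 0.29 ± 0.07 (edgeR adjusted p = 0.00541). Aldoc, a far less abundant form, had 8.84, 7.98, 8.15, 7.57 and 6.50 CPM in palatal libraries, against 12.4, 12.2, 11, 14.9 and 12 CPM in buccal libraries. Neither gene overlapped between the sides, and Aldoc fell by 0.67 ± 0.10 (edgeR adjusted p = 9.13e-05).

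The triose steps, which yield ATP, were lower at 4 of 6 genes, against 20.3% of all tested genes. Pgk1, phosphoglycerate kinase, had 186, 204, 179, 191 and 172 CPM in palatal libraries, against 245, 220, 222, 235 and 233 CPM in buccal libraries. Pgam1, phosphoglycerate mutase, had 257, 256, 243, 236 and 223 CPM in palatal libraries, against 299, 300, 283, 298 and 301 CPM in buccal libraries. Both genes were fully separated by side, and they fell by 0.31 ± 0.06 and 0.29 ± 0.06 (edgeR adjusted p = 0.00133 and 0.00166). Gapdh, the dehydrogenase often used as a reference transcript, had 548, 489, 521, 486 and 475 CPM in palatal libraries, against 635, 599, 553, 607 and 567 CPM in buccal libraries. It fell by 0.23 ± 0.07 (edgeR adjusted p = 0.0134), and the highest palatal library lay just below the lowest buccal one. Tpi1, triose phosphate isomerase, averaged 348 ± 12.0 CPM in palatal and 403 ± 23.3 CPM in buccal libraries and fell by 0.21 ± 0.06 (edgeR adjusted p = 0.0137; 0.059 with no filter on low counts).

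The last enzymes of the chain did not pass the test. Eno1, enolase, had 345, 337, 331, 251 and 261 CPM in palatal libraries, against 438, 330, 337, 362 and 368 CPM in buccal libraries. Palatal libraries 1 to 3 lay within the buccal range, and the log2 fold change was -0.27 ± 0.11 (edgeR adjusted p = 0.0579). The edgeR adjusted p was 0.0449 without palatal library 1, 0.049 without palatal library 2 and 0.040 without buccal library 2. It was 0.14 without palatal library 4 and 0.148 without palatal library 5. Pkm, pyruvate kinase, the most counted of the 21 genes, had 815, 684, 772, 772 and 754 CPM in palatal libraries, against 817, 878, 817, 751 and 742 CPM in buccal libraries. Its log2 fold change was -0.08 ± 0.07 (edgeR adjusted p = 0.443). Gapdh, Aldoa, Tpi1, Pgk1, Pgam1, Eno1 and Ldha have processed pseudogene copies in the mouse genome, so the assignment of some of their reads is uncertain.

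**Figure D2:**
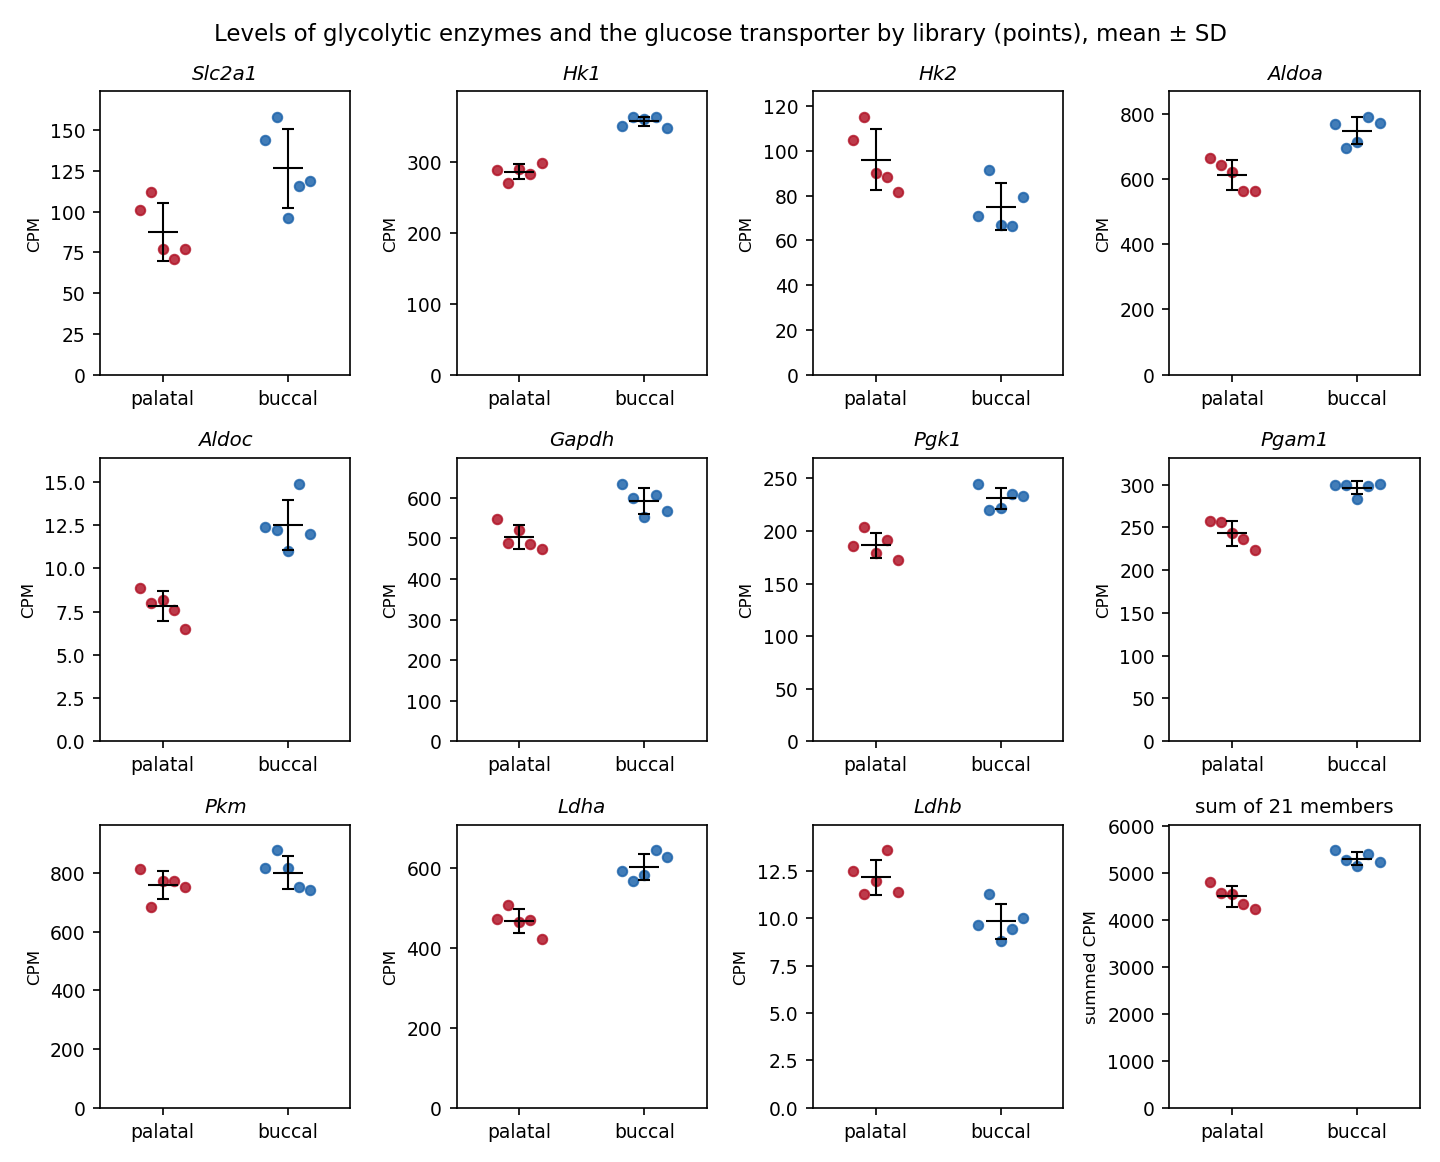
CPM of 11 members and the summed CPM of all 21 enzymes, regulators and transporters, palatal left and buccal right; points are libraries 1 to 5 from left to right, bars are the mean and SD, and each vertical axis starts at 0. Hk1, Aldoa, Aldoc, Gapdh, Pgk1, Pgam1, Ldha and the sum have all 5 palatal points below all 5 buccal points, Hk2 and Ldhb lie higher in palatal libraries, and Pkm overlaps.

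At the pyruvate branch the 2 lactate dehydrogenase genes moved apart. Ldha, whose product favours lactate formation, had 473, 508, 464, 470 and 421 CPM in palatal libraries, against 592, 567, 581, 644 and 626 CPM in buccal libraries. All 5 palatal libraries were lower, and Ldha fell by 0.37 ± 0.07 (edgeR adjusted p = 0.000659). Ldhb, whose product is the heart-type subunit, had 12.5, 11.3, 12.0, 13.6 and 11.4 CPM in palatal libraries, against 9.65, 11.3, 8.80, 9.43 and 10.0 CPM in buccal libraries. The sides separated only narrowly, since palatal library 2 and buccal library 2 had the same value to 3 digits, and 13.6% of all tested genes had every palatal library above every buccal one. Ldhb rose by 0.31 ± 0.09 (edgeR adjusted p = 0.0109). Pdk1, the kinase that switches off pyruvate dehydrogenase, averaged 67.4 ± 3.29 CPM in palatal and 67.6 ± 3.63 CPM in buccal libraries (SD, n = 5 each; edgeR adjusted p = 0.976).

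The PFKFB enzymes make and break down the sugar phosphate that activates phosphofructokinase. Pfkfb3, the form with the strongest kinase activity, had 6.49, 6.99, 4.29, 4.98 and 5.27 CPM in palatal libraries, against 9.85, 13.2, 8.99, 7.60 and 11.2 CPM in buccal libraries. It had the largest log2 fold change among the 21 genes, -0.86 ± 0.16 (edgeR adjusted p = 0.000533), with no overlap between the sides. Pfkfb4 averaged 25.9 ± 4.27 CPM in palatal and 31.2 ± 2.66 CPM in buccal libraries, a log2 fold change of -0.27 ± 0.10 that missed the threshold (edgeR adjusted p = 0.0525). Without palatal library 2 the Pfkfb4 value was -0.35 (edgeR adjusted p = 0.0101) and without buccal library 2 it was -0.32 (edgeR adjusted p = 0.0249). Without palatal library 3 it was -0.20 (edgeR adjusted p = 0.155).

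The HIF alpha subunit genes were both higher in palatal epithelium. Hif1a, present in nearly all cells, had 329, 312, 311, 279 and 318 CPM in palatal libraries 1 to 5, against 228, 324, 240, 182 and 232 CPM in buccal libraries 1 to 5. Buccal library 2 lay inside the palatal range, the other 4 lay below it, and the spread was 6.0% of the mean among palatal and 21.4% among buccal libraries. Hif1a rose by 0.36 ± 0.12 (edgeR adjusted p = 0.0248), but the call was lost without buccal library 1, 4 or 5 (edgeR adjusted p = 0.0507, 0.0558 and 0.0521) and with scaling by library totals (0.0584). Epas1, which encodes the HIF-2 alpha subunit, had 163, 143, 155, 171 and 172 CPM in palatal libraries, against 116, 127, 137, 129 and 141 CPM in buccal libraries. It rose by 0.31 ± 0.07 (edgeR adjusted p = 0.00345) with all palatal libraries above all buccal ones. HIF alpha activity is set largely by protein stability, which RNA counts do not measure.

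The prolyl hydroxylase genes went in opposite directions. Egln1, the main oxygen sensor in most tissues, had 114, 106, 103, 97.6 and 93.1 CPM in palatal libraries, against 90.2, 95.0, 81.7, 89.0 and 84.7 CPM in buccal libraries. It rose by 0.22 ± 0.07 (edgeR adjusted p = 0.0182; 0.083 with scaling by library totals), with palatal library 5 below buccal library 2. Egln3, itself a strongly HIF-induced gene, had 148, 165, 123, 138 and 125 CPM in palatal libraries, against 231, 249, 206, 248 and 229 CPM in buccal libraries. The 2 sets were far apart, and Egln3 fell by 0.73 ± 0.09 (edgeR adjusted p = 9.45e-06). On the scale per kilobase of exon, Egln3 stood at 52.5 in palatal and 87.3 in buccal epithelium and Egln1 at 28.5 and 24.5.

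Among the 8 target genes outside the hydroxylases, 4 fell and 1 rose, while 20.3% of all tested genes fell and 18.7% rose. Ankrd37, an ankyrin repeat gene used in hypoxia signatures, had 2.91, 4.24, 3.13, 2.59 and 2.20 CPM in palatal libraries, against 6.31, 6.77, 8.80, 7.95 and 5.51 CPM in buccal libraries. It had the largest log2 fold change of the 33 genes, -1.22 ± 0.17 (edgeR adjusted p = 4.62e-05), or 0.43 of the buccal level. Ero1a, the oxidase that drives disulfide bonding in the endoplasmic reticulum, had 45.3, 52.2, 42.6, 42.5 and 44.2 CPM in palatal libraries, against 62.0, 73.3, 68.6, 69.8 and 74.2 CPM in buccal libraries. It fell by 0.62 ± 0.07 (edgeR adjusted p = 9.65e-06), and neither Ankrd37 nor Ero1a overlapped between the sides. Bnip3, a mitophagy receptor gene, had 33.6, 37.1, 29.0, 34.3 and 35.1 CPM in palatal libraries, against 34.4, 45.1, 47.1, 53.5 and 47.8 CPM in buccal libraries. Buccal library 1 lay within the palatal range, and Bnip3 fell by 0.43 ± 0.10 (edgeR adjusted p = 0.00382). Ndrg1, a stress- and differentiation-linked gene, averaged 85.4 ± 8.55 CPM in palatal and 107 ± 12.9 CPM in buccal libraries and fell by 0.32 ± 0.09 (edgeR adjusted p = 0.0102).

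The collagen prolyl hydroxylases, which stabilise the collagen helix, again differed between paralogs. P4ha2 had 18.1, 16.7, 16.1, 14 and 15.7 CPM in palatal libraries, against 12.8, 9.98, 11.2, 10.3 and 10.6 CPM in buccal libraries. It rose by 0.55 ± 0.09 (edgeR adjusted p = 0.000197), with every palatal library above every buccal one. P4ha1 had 21.6, 21.8, 18.8, 22.7 and 20.8 CPM in palatal libraries, against 22.6, 24.4, 24.0, 24.0 and 24.1 CPM in buccal libraries. Its log2 fold change of -0.17 ± 0.07 did not pass (edgeR adjusted p = 0.0524). The edgeR adjusted p was 0.0375 without palatal library 4 and 0.159 without palatal library 3. The fibroblast marker Dcn, at 73.3 ± 6.40 CPM in palatal and 6.61 ± 1.90 CPM in buccal libraries, moved in the direction of P4ha2. So did the collagen gene Col6a1, at 13.7 ± 2.31 and 7.49 ± 0.633 CPM. Another collagen gene, Col1a1, stood at 1.48 ± 0.73 and 1.87 ± 0.509 CPM (SD, n = 5 each). Of the 6 fibroblast markers tested, 3 were higher and 0 lower. Whether cells of the connective tissue contributed to P4ha2 was not tested, and in such bulk samples a change in the share of a cell type and a change in RNA per cell cannot be told apart.

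The secreted factors did not pass in the main fit. Vegfa, the main angiogenic factor gene, had 33.8, 40.9, 27.3, 23.1 and 29.8 CPM in palatal libraries, against 34.2, 40.4, 37.2, 33.7 and 41.9 CPM in buccal libraries. Palatal library 2 was at the level of the highest buccal libraries, and the log2 fold change was -0.27 ± 0.13 (edgeR adjusted p = 0.107). Without palatal library 2 it was -0.39 (edgeR adjusted p = 0.0107). Without palatal library 3 or 4 it was -0.22 or -0.18 (edgeR adjusted p = 0.236 for each). Adm, which encodes the vasodilator adrenomedullin, had 5.46, 5.20, 5.36, 6.85 and 8.59 CPM in palatal libraries, against 2.12, 2.69, 3.16, 4.87 and 7.30 CPM in buccal libraries. Its log2 fold change was 0.63 ± 0.30 (edgeR adjusted p = 0.125), and without buccal library 5, the highest of that side, it was 0.97 (edgeR adjusted p = 0.00415). Without palatal library 4 it was 0.60 (edgeR adjusted p = 0.197). With a replicate block Vegfa and Adm passed (edgeR adjusted p = 0.0374 and 0.00418).

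**Figure D3:**
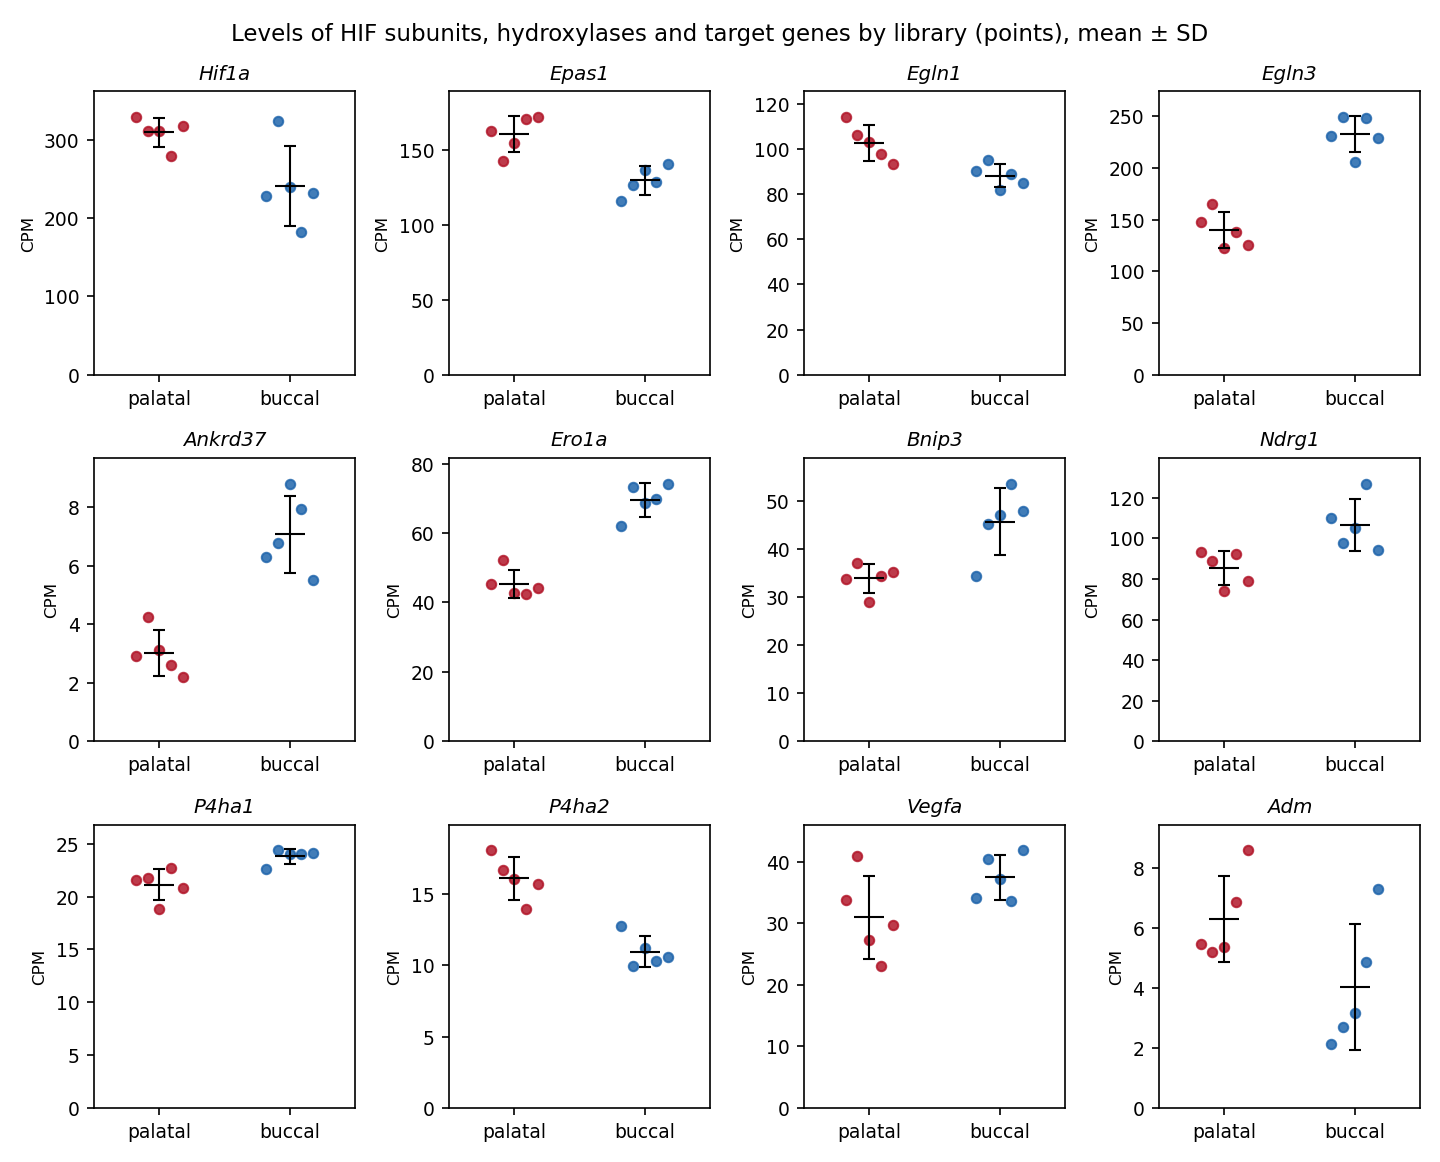
CPM of the 12 HIF subunits, hydroxylases and target genes, palatal left and buccal right; points are libraries 1 to 5 from left to right, bars are the mean and SD, and each vertical axis starts at 0. Epas1 and P4ha2 have all palatal points above all buccal ones, Egln3, Ankrd37, Ero1a and Ndrg1 have them all below, and Vegfa and Adm overlap.

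HIFs bind a short core sequence, the hypoxia response element, that reads ACGTG or GCGTG. Both strings were searched on both strands in RefSeq promoter windows (build GRCm38.p6, from 250 bases before to 50 after each start), available for 31 of the 33 genes in 45 windows. The core ACGTG was in 25 of 45 windows (55.6%), against 19.6% of all 32851 windows and 20.9% of windows of protein-coding genes. The members include genes listed as HIF targets, so a higher share was to be anticipated from their choice. Windows of the same gene can overlap, as for Aldoa, so the same site can count in several windows. GCGTG was in 60.0% of the members' windows, against 32.4% of all windows and 38.5% of protein-coding ones. The members' windows are also richer in G and C (62.0%, against 53.8% over all and 56.2% over protein-coding windows) and hold more CG pairs (19.8 per window, against 12.4 and 15.4), and both cores contain a CG pair. Of the members with a window, ACGTG was found for 14 of 17 that were lower, 4 of 5 that were higher and 4 of 9 that did not pass. It was found for 21.8% of all genes and 23.2% of protein-coding genes with a window. Either core was found for 15 of 17 that were lower, 5 of 5 that were higher and 9 of 9 that did not pass. For either core the shares were 46.7% of all genes and 52.3% of protein-coding genes with a window. ACGTG is also part of CACGTG, the site of several other factors, which was in 11.1% of the members' windows and 7.15% of all windows. A match in these letters is no evidence of binding in gingiva.

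Stretches upstream of the start that hold these cores are shown side by side for a chosen part of the genes that fell and that rose. Other called genes also had upstream matches, such as Hk2 and Ldhb, which rose, and Slc2a1 and Pgam1, which fell. Gpi1 and Tpi1, which fell, had neither core in their windows. Each stretch is written 5′ to 3′ along the gene with ACGTG or GCGTG, on either strand, in capitals. The stretches shown for genes that fell are those of Egln3 (chr12:54204089-54204113, minus strand), Ankrd37 (chr8:45999851-46000100, minus), Ero1a (chr14:45318621-45318710, minus), Bnip3 (chr7:138909527-138909633, minus), Ldha (chr7:46845649-46845784, plus), Pgk1 (chrX:106186940-106186983, plus) and Pfkfb3 (chr2:11502128-11502222, minus).
Egln3: tgcatctcagACGTGagatccaggt
Ankrd37: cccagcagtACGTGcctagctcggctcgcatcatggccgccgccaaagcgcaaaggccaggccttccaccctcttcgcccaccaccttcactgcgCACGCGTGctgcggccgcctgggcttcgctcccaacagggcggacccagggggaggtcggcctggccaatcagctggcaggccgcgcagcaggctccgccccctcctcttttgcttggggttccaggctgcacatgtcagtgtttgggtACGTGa
Ero1a: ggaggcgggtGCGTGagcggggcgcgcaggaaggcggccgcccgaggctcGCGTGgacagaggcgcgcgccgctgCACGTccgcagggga
Bnip3: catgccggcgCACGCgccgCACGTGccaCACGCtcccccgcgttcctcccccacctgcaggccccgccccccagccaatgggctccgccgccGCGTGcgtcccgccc
Ldha: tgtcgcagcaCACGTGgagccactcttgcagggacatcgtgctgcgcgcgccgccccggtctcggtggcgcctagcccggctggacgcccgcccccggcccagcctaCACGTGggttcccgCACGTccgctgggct
Pgk1: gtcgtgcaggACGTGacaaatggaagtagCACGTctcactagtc
Pfkfb3: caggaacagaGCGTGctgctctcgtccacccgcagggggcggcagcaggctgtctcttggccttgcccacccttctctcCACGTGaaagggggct
The stretches shown for genes that rose are those of P4ha2 (chr11:54100807-54100869, plus strand), Egln1 (chr8:124949308-124949390, minus) and Hif1a (chr12:73907722-73907811, plus).
P4ha2: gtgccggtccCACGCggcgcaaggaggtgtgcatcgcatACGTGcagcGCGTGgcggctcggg
Egln1: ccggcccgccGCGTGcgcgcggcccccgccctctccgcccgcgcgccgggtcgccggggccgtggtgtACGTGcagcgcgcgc
Hif1a: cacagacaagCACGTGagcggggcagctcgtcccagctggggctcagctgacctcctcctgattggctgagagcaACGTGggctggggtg
The Ldha stretch holds 5 matches to ACGTG, as CACGTG read on both strands and as CACGT, while Egln3 has a single match. Genes of both directions carry the core: P4ha2 has ACGTG and GCGTG, as do Ero1a and Bnip3.

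For 10 pairs of related genes, chosen with earlier results of these data known, the ratio of counts was formed within each library, in which the library size cancels. The ratios restate the levels above on a scale free of library scaling and are not independent support for them. The comparison used an exact permutation test, two-sided, with Benjamini-Hochberg adjustment over the 10 ratios, and 7 passed. Each of the 7 reached the smallest p that 5 against 5 libraries allow, 0.00794, which is 0.0113 after adjustment. The log2 ratio of Hk2 to Hk1 was -1.58 ± 0.24 in palatal and -2.26 ± 0.20 in buccal libraries (SD, n = 5 each; exact permutation adjusted p = 0.0113), a difference of 0.68 ± 0.14 (SE). That of Ldhb to Ldha was -5.26 ± 0.14 in palatal and -5.94 ± 0.17 in buccal libraries, a difference of 0.68 ± 0.10. For Hk2 to Hk1 and for Ldhb to Ldha, all 5 palatal ratios lay above all 5 buccal ratios.

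The hydroxylase balance was far apart. The log2 ratio of Egln3 to Egln1 was 0.38, 0.64, 0.25, 0.50 and 0.43 in palatal libraries 1 to 5, against 1.35, 1.39, 1.33, 1.48 and 1.43 in buccal libraries 1 to 5, a difference of -0.96 ± 0.07. The ratio of P4ha2 to P4ha1 was 0.72 ± 0.12 log2 units higher in palatal libraries and that of Pfkfb4 to Pfkfb3 0.58 ± 0.18 higher. The ratio of Aldoc to Aldoa was lower by a difference of -0.38 ± 0.07. That of Slc16a3 to Slc16a1, the more abundant lactate and pyruvate carrier MCT1, differed by -1.24 ± 0.32. In each of these 5 pairs the sides did not overlap. The ratios that did not pass were Pfkp to Pfkl (0.05 ± 0.07, exact permutation adjusted p = 0.503), Pfkm to Pfkl (0.14 ± 0.08, exact permutation adjusted p = 0.119) and Epas1 to Hif1a (-0.08 ± 0.16, exact permutation adjusted p = 0.643). Without library 2 on both sides the Pfkm to Pfkl difference was 0.22 and passed (exact permutation adjusted p = 0.0357).

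**Figure D4:**
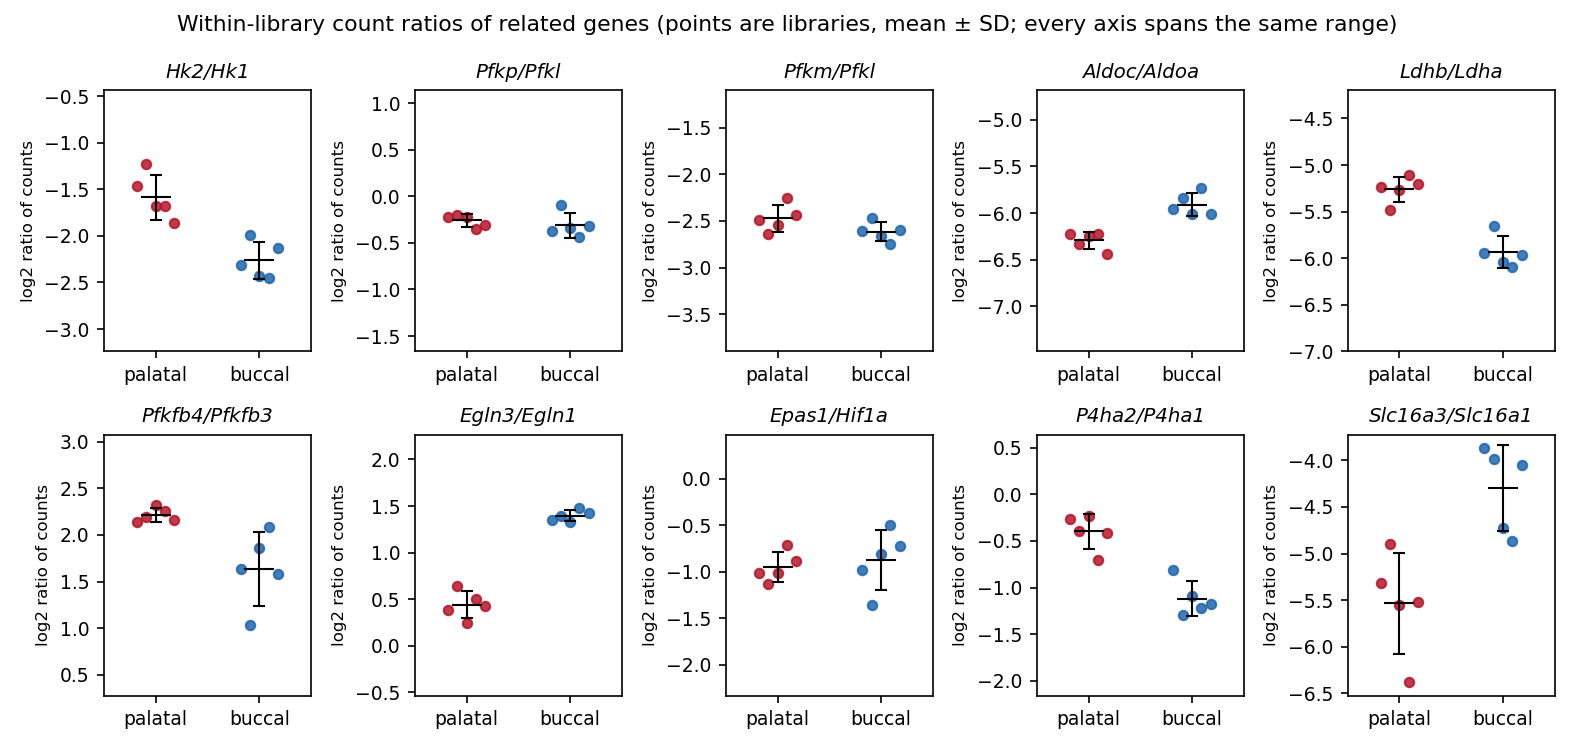
Log2 ratios of raw counts of 10 gene pairs within each library, palatal left and buccal right; points are libraries 1 to 5 from left to right, bars are the mean and SD, and every vertical axis spans the same number of log2 units. The Egln3 to Egln1 ratio averages 0.44 in palatal and 1.4 in buccal libraries, and the Pfkp to Pfkl, Pfkm to Pfkl and Epas1 to Hif1a ratios overlap.

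Other genes of the same pathways were read from 7 lists holding 125 genes. Among all tested genes, 20.3% were lower and 18.7% higher. Counts near these shares in such short lists are not results about the pathway. Of the 24 remaining glycolytic isozymes and sugar transporters listed, 12 were tested, of which 4 were higher and 2 lower, with a median log2 fold change of 0.24. Bpgm, which makes the red cell phosphate ester from a glycolytic triose, fell by 0.73 ± 0.10 (edgeR adjusted p = 5.2e-05), and the sugar transporter Slc2a12 by 1.03 ± 0.09 (edgeR adjusted p = 8.19e-07). Adpgk, an ADP-dependent glucokinase, rose by 0.55 ± 0.10 (edgeR adjusted p = 0.000757), and Gapdhs, the sperm form of Gapdh, by 2.20 ± 0.31 (edgeR adjusted p = 5.9e-05) at only 1.1 CPM in palatal and 0.242 CPM in buccal libraries.

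The regulators of pyruvate dehydrogenase and of phosphofructokinase were mixed, with 2 higher and 3 lower of 9 (22.2% and 33.3%). Pdk4, a pyruvate dehydrogenase kinase induced by fasting, averaged 4.12 ± 0.989 CPM in palatal and 15.9 ± 2.80 CPM in buccal libraries and fell by 1.95 ± 0.17 (edgeR adjusted p = 4.17e-07). Pfkfb2 and Pdk3 rose by 0.37 ± 0.09 and 0.24 ± 0.07 (edgeR adjusted p = 0.00384 and 0.00953). Of 11 tested genes of pyruvate and lactate carriage and of the pyruvate dehydrogenase complex, 2 were higher and 2 lower (18.2% each). The carrier Slc16a1 rose by 0.46 ± 0.06 (edgeR adjusted p = 3.53e-05), and Emb, a membrane chaperone of such carriers, averaged 111 ± 6.89 CPM in palatal and 62.5 ± 2.97 CPM in buccal libraries, a rise by 0.83 ± 0.06 (edgeR adjusted p = 1.02e-07). Pdha1, the E1 subunit gene of pyruvate dehydrogenase, fell by 0.23 ± 0.06 (edgeR adjusted p = 0.00801).

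The pentose phosphate pathway, which branches off at glucose 6-phosphate and yields NADPH, had 4 lower and 1 higher of 8 tested genes. These shares were 50% and 12.5%, against 20.3% and 18.7% of all tested genes, and the list's median log2 fold change was -0.25. The pathway's cytosolic NADPH-producing dehydrogenases both fell. G6pdx averaged 231 ± 12.3 CPM in palatal and 334 ± 24.6 CPM in buccal libraries, and Pgd 180 ± 10.9 and 329 ± 16.1 CPM (SD, n = 5 each; edgeR adjusted p = 2.47e-05 and 8.82e-08). The transaldolase gene Taldo1 fell by 0.49 ± 0.09 and the isomerase gene Rpia rose by 0.39 ± 0.07 (edgeR adjusted p = 0.000603 and 0.000319).

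Of 13 tested gluconeogenesis and glycogen genes, 2 were higher and 4 lower (15.4% and 30.8%). Pygl, the liver-type glycogen phosphorylase, averaged 26 ± 3.82 CPM in palatal and 3.08 ± 0.256 CPM in buccal libraries, a rise by 3.08 ± 0.11 (edgeR adjusted p = 5.12e-11). Fbp2, a fructose bisphosphatase, fell by 1.23 ± 0.08, the phosphoglucomutase Pgm1 by 0.64 ± 0.06 and pyruvate carboxylase Pcx by 0.85 ± 0.08 (edgeR adjusted p = 3.98e-08, 9.65e-07 and 1.32e-06).

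The rest of the oxygen-sensing machinery mostly did not pass, with 1 higher and 1 lower of 13 tested genes. Siah2, an E3 ligase that targets Egln proteins, averaged 12.7 ± 1.15 CPM in palatal and 37.2 ± 5.15 CPM in buccal libraries and fell by 1.55 ± 0.10 (edgeR adjusted p = 1.96e-08), while its paralog Siah1a rose by 0.30 ± 0.07 (edgeR adjusted p = 0.005). The third prolyl hydroxylase gene Egln2 stood at -0.19 ± 0.08 (edgeR adjusted p = 0.091). Its edgeR adjusted p was 0.0195 without buccal library 2 and 0.134 without palatal library 1. Elob, a subunit of the VHL ligase, stood at -0.26 ± 0.10 (edgeR adjusted p = 0.0518). The edgeR adjusted p of Elob was 0.0102 without buccal library 2, 0.0497 without buccal library 3 and 0.124 without palatal library 4. Of 34 other tested HIF target genes, 10 were lower and 4 higher (29.4% and 11.8%), with a median log2 fold change of -0.04. Among all tested genes the shares were 20.3% and 18.7%. The carbonic anhydrase gene Car12 averaged 95.4 ± 5.38 CPM in palatal and 236 ± 9.49 CPM in buccal libraries and fell by 1.31 ± 0.06 (edgeR adjusted p = 7.47e-10). Edn1, the endothelin gene, and Nt5e, the ectonucleotidase CD73, fell by 1.17 ± 0.13 and 0.91 ± 0.11, and Insig2, a sterol sensor, rose by 0.92 ± 0.08 (edgeR adjusted p = 7.3e-06, 1.5e-05 and 4.28e-07).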

How the data were processed

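Polyadenylated RNA of 5 palatal and 5 buccal gingival epithelium samples was sequenced as single-end reads from stranded libraries, per the labels' protocols. Tools listed in the submitters' processing notes are HTSeq 2.01, TopHat2 2.1.1, DESeq2 1.36.0 and cutadapt 2.10, and the build listed is GRCm39; their roles and the strand setting are not given there. The authors' table holds, per the file headers, raw counts and the authors' DESeq2-normalized values, a signal equal to the count divided by 1 factor per library. The table has 0 columns of other samples, and 6250 of its 55414 rows are blank and were left out.

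Genes were filtered with edgeR's filterByExpr (minimum count 10), scaled by TMM and compared, palatal minus buccal, with edgeR's quasi-likelihood F-test (edgeR 4.0.16, limma 3.58.1, DESeq2 1.42.0, R 4.3.3), two-sided, with adjustment over all 14062 tested genes at 0.05. Standard errors were obtained as the absolute log2 fold change over the root of the F statistic. CPM uses TMM-scaled totals. Exon length per gene is the union of all its exons annotated in GENCODE M21 (build GRCm38), matched by Ensembl identifier. Count ratios used a pseudocount of 0.5 and an exact permutation test (scipy 1.17.1). The edgeR test was tried on simulated palatal and buccal counts of 13928 genes, with 200 genes changed. It found 20% of 1.25-fold changes, 72% at 1.5-fold, 92% at 2-fold and 100% at 4-fold, and 7.2% of its calls were false. In the data 38.9% of genes were called. With so few changed genes the adjustment was stricter in the simulation, so these shares do not carry over to the data. Many of the differences above are smaller than 1.5-fold, so genes not past the threshold are not shown to be equal.

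All 33 members could be named; of each further list up to 4 genes with the smallest p are named, and up to 3 markers with the highest level. The members and lists were chosen with earlier results of these data known. Alternatives tried were scaling by RLE, by upper quartiles or by library totals, no filter, a filter of 1 CPM in 5 libraries, DESeq2, limma-voom, limma-trend on the deposited values (log2 of the value plus 1), a replicate block, and leaving out libraries. No comparison by microbial status was made, since the labels give none. 1 of the 125 further symbols, Gyg1, was matched through a synonym, and 124 were found. One list of markers is not reported here.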

Additional observations from a re-analysis of the deposited data

Results flagged for a closer look

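In 90 groups of 5 libraries (each member, summed list and ratio on each side), the gap between an extreme library and its neighbour was compared with Dixon's critical value of 0.71; chance flags about 1 in 20 groups, and 2 were flagged. Buccal library 3 had the lowest Pgam1 level of its side, 283 CPM, with the other 4 between 298 and 301 CPM (gap over range 0.871). Buccal library 1 had the lowest P4ha1 level of its side, 22.6 CPM, with the others between 24.0 and 24.4 CPM (gap over range 0.776). Both lowest values still lay above the palatal mean of their gene, which was 243 CPM for Pgam1 and 21.2 CPM for P4ha1. The Pgam1 value also lay above the highest palatal library, at 257 CPM. The P4ha1 value lay just below palatal library 4, at 22.7 CPM, and so within the palatal range.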

How the results depend on the processing

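Of 24 called members, 18 kept their call and direction under all 20 alternatives. The 6 exceptions (Slc2a1, Slc16a3, Pfkl, Tpi1, Hif1a and Egln1) kept their direction; their values are given above, except that Slc16a3 also missed the threshold with limma-voom (adjusted p = 0.0532). Of the members not called, Pfkp, Eno1, Pfkfb4, Vegfa, P4ha1 and Adm passed under some alternatives. Counts of called genes moved by under 1.5 times, with 1 exception. The HIF genes called higher numbered 2 with library totals as scaling, where Hif1a and Egln1 missed the threshold. Leaving out libraries gave 11 to 15 of the 21 genes lower and 2 higher, 5 to 6 of the 12 HIF genes lower and 3 to 4 higher, and 4916 to 5399 genes called in all. The sign of Pdk1 turned at values near 0: 0.01 with upper-quartile scaling, 0.002 with no filter, 0.01 without palatal library 2, 0.03 without palatal library 3, 0.00031, 0.02 and 0.01 without buccal libraries 2, 3 and 4, and 0.01 without library 2 of both sides (leaving out 1 library gave -0.02 to 0.03). Epas1 to Hif1a ranged from -0.20 without buccal library 2 to 0.02 without buccal library 4. The labels do not say whether libraries with the same number belong together, and the values do not settle it. Correlations of their deviations were -0.023 to 0.328, and 2 of 5 palatal libraries correlated best with their own number. A replicate block called 15 lower and 2 higher of the 21 genes, 6 lower and 5 higher of the 12, and 5518 genes in all. A sign-flip test over same-numbered pairs cannot go below 0.0625, so all 7 ratio calls were lost under that pairing (adjusted p = 0.0893).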
